A study of Homo sapiens with 4 samples.

Results

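The 9 genes described here are 2 stanniocalcins and 7 genes linked to the response of cells to low oxygen: STC1, STC2, VEGFA, VEGFC, ADM, NDRG1, BNIP3, HIF1A and EGLN3. They were taken from the probes that carry these symbols in the platform annotation, 13 of 48784 probes on the array, and the set was built around STC1, which was selected on its difference between Con_TSA and Con. That difference is therefore given as a description. All 9 genes were measured, with 11 of the 13 probes kept after a detection filter, among 10128 genes in all.

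The cells were SW1353, a single human chondrosarcoma line that serves as a stand-in for chondrocytes, starved of serum overnight. Total RNA was extracted from 4 cultures and its gene expression was profiled on Illumina expression arrays. The cultures were given the DMSO vehicle alone (Con) or a stimulation with IL-1α that is labelled as 6 hours (IL1). The others were given 250 ng/ml trichostatin A (TSA), begun 1 hour ahead of the same stimulation (IL1_TSA) or with no IL-1 (Con_TSA). TSA blocks the zinc-dependent histone deacetylases (HDACs), and IL-1 is an inflammatory cytokine that acts on cartilage cells through NF-κB and MAP kinases. No sample was labelled as grown in low oxygen. Each condition was 1 array, so differences between conditions carry no replicate check and were not tested, and precision is limited by the number of arrays. Fewer cells and less RNA per cell cannot be told apart in such bulk samples.

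Cells sense oxygen through hypoxia-inducible factors (HIFs), in which an alpha subunit such as HIF1A pairs with ARNT and binds short hypoxia response elements. In normal oxygen, prolyl hydroxylases of the EGLN family mark the alpha subunit for destruction through VHL, so HIF1A is controlled mainly as a protein, which arrays do not measure. Known targets of HIFs include the vessel growth factor VEGFA, the vasodilator peptide ADM, the mitophagy receptor BNIP3, the stress-induced NDRG1 and the hydroxylase EGLN3 itself, which thereby feeds back on the pathway. Stanniocalcins are secreted glycoproteins first known as calcium-lowering hormones of fish, and both human genes are induced by low oxygen in other cells. Cartilage has no blood vessels, and chondrocytes normally live in low oxygen.

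Levels are given as log2 intensity after background correction and quantile normalisation, with raw scanner intensities beside them where useful. A gene is called higher or lower when its level differed by 1.5-fold or more and the brighter array detected 1 or more of its probes. With 1 array per condition, the only error that can be given is measurement noise, written as ± an SD of the log2 difference. It was taken from the spread between probes of the same gene, pooled over genes of similar level with several probes. It was then divided by the square root of a gene's number of kept probes. For a gene with 1 kept probe it thus comes from other genes. It says nothing of variation between cultures. Between 26.8% and 28.8% of probes were detected on each array, and the median raw intensity was 113 on IL1_TSA against 86.9 to 95.3 on the other arrays. The cells carried detected probes for 3 of 12 chondrocyte markers on every array, SOX9, COL11A1 and HAPLN1, whereas COL2A1, ACAN and COMP, which define the type, were not detected. The summed log2 level of the 3 ranged from 25.7 to 26.8. Of markers of other cells, VWF and TEK (2 of 4 endothelial) and CD68 (1 of 3 leukocyte) were detected, and PECAM1, CDH5, PTPRC, CD14, EPCAM and CDH1 were not. The summed endothelial level was 15.8 on Con, 14.7 on IL1, 14.5 on Con_TSA and 13.9 on IL1_TSA, and CD68 ranged from 11.64 to 12.24. Their part in the results was not tested.

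Promoter sequences are shown for 4 of the genes. VEGFC and STC2 were lower with TSA both without and with IL-1, ADM only with it, and BNIP3 was level on all arrays. They are RefSeq windows of 300 bases in GRCh38.p14, from 250 bases before to 50 after the annotated start, written 5′ to 3′ on the strand of the gene. Capitals mark the core of the hypoxia response element, searched as ACGTG and GCGTG on both strands, so that CACGT and CACGC are the same cores read from the other strand. The E-box CACGTG, bound by other factors, overlaps the first core. VEGFC lies at chr4:176792873-176793172 and STC2 at chr5:173328365-173328664, both on the minus strand. ADM lies at chr11:10304823-10305122 on the plus strand and BNIP3 at chr10:131981874-131982173 on the minus strand.
VEGFC: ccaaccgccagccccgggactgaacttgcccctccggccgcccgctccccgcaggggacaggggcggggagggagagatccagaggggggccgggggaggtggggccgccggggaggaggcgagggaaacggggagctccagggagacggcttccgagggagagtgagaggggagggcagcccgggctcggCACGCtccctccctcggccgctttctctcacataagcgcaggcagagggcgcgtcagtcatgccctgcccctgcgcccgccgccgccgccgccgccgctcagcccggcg
STC2: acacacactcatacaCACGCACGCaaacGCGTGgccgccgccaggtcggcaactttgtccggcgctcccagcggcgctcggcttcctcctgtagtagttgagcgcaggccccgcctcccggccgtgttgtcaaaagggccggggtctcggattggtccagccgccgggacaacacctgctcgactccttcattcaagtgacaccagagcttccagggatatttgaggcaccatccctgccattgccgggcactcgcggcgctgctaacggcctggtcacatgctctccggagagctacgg
ADM: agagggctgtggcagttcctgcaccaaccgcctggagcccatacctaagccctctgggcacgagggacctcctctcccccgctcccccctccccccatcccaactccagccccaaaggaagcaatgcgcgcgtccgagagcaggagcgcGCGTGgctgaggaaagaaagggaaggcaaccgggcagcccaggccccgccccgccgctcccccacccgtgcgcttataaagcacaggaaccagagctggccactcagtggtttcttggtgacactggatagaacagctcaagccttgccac
BNIP3: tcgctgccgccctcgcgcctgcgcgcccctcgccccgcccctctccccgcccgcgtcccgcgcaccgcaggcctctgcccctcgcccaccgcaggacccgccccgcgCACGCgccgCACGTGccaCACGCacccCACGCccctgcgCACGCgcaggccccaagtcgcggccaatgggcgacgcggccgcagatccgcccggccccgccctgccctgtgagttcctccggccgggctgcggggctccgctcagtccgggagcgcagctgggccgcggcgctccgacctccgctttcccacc

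VEGFC and ADM each held 1 core, STC2 held 3, of which 2 overlap, and BNIP3 held 6, of which 2 are the opposite strands of 1 E-box. Windows were found for 6 of the 9 genes, with none for STC1, VEGFA and NDRG1, and HIF1A had 2 windows. At least 1 core was in a window of 5 of the 6, all but EGLN3. Such short cores are common, since 48.4% of all 35116 windows of this length held at least 1, and 10.1% held 3 or more. A match describes letters in the window and is not evidence of a bound site. BNIP3 had the most cores and the smallest range over the arrays, and VEGFC had 1 core and a log2 range of 3.14. STC2 had 3 cores and a range of 1.89, and EGLN3 had no core and a range of 0.34. ADM had 1 core and a range of 1.82, and HIF1A, with 1 core in 1 of its 2 windows, had a range of 0.93. A relation between cores and expression was not tested.

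STC1 had its lowest level on Con and its highest on IL1_TSA. Its log2 level on 1 probe (ILMN_1758164) was 9.47 on Con, 10.74 on IL1, 12.61 on Con_TSA and 13.09 on IL1_TSA, from raw intensities of 763, 1726, 4914 and 11062. Both arrays with TSA stood above both arrays without it, and the TSA arrays differed from each other by less than 1.5-fold. TSA alone came with a level 8.84-fold higher than in Con, 3.14 ± 0.19 on the log2 scale. This was the largest increase among 8686 genes detected on both arrays and the ninth of all 10128 genes where the 8 genes ahead of it were undetected on Con. As this difference chose the gene, nothing more is read from it.

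The arrays with IL-1 give a second measure of the TSA effect on STC1, sharing no array with the first. STC1 was 5.10-fold higher in IL1_TSA than in IL1, a log2 difference of 2.35 ± 0.22. This ranked 21 among 8649 genes detected on both arrays and 85 among all 10128 genes. IL-1 alone came with a 2.40-fold higher level of STC1 than Con, 1.26 ± 0.29 on the log2 scale. The choice of STC1 on Con_TSA against Con favours a low level on Con and a high level on Con_TSA. Its IL-1 differences reuse these arrays and are given as a description. With TSA present, the level with IL-1 was 1.39-fold that without it, 0.47 ± 0.21, short of the threshold. In the authors' deposited values that last difference was 0.61, just past the threshold, and the TSA effects without and with IL-1 were 2.62 and 2.36.

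STC2, the paralogue of STC1, had its lowest levels on the TSA arrays. Its log2 level (ILMN_1691884) was 11.20 on Con, 11.46 on IL1, 9.70 on Con_TSA and 9.57 on IL1_TSA. Both arrays with TSA lay below both without, and within each pair the arrays differed by 1.20-fold or less. With TSA, STC2 was 2.84-fold lower without IL-1 (-1.50 ± 0.26 on the log2 scale) and 3.70-fold lower with it (-1.89 ± 0.31). In the IL-1 pair, which the choice of STC1 did not use, STC1 was higher and STC2 lower with TSA. IL-1 against Con gave 0.26 for STC2, under the threshold.

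**Figure D1:**
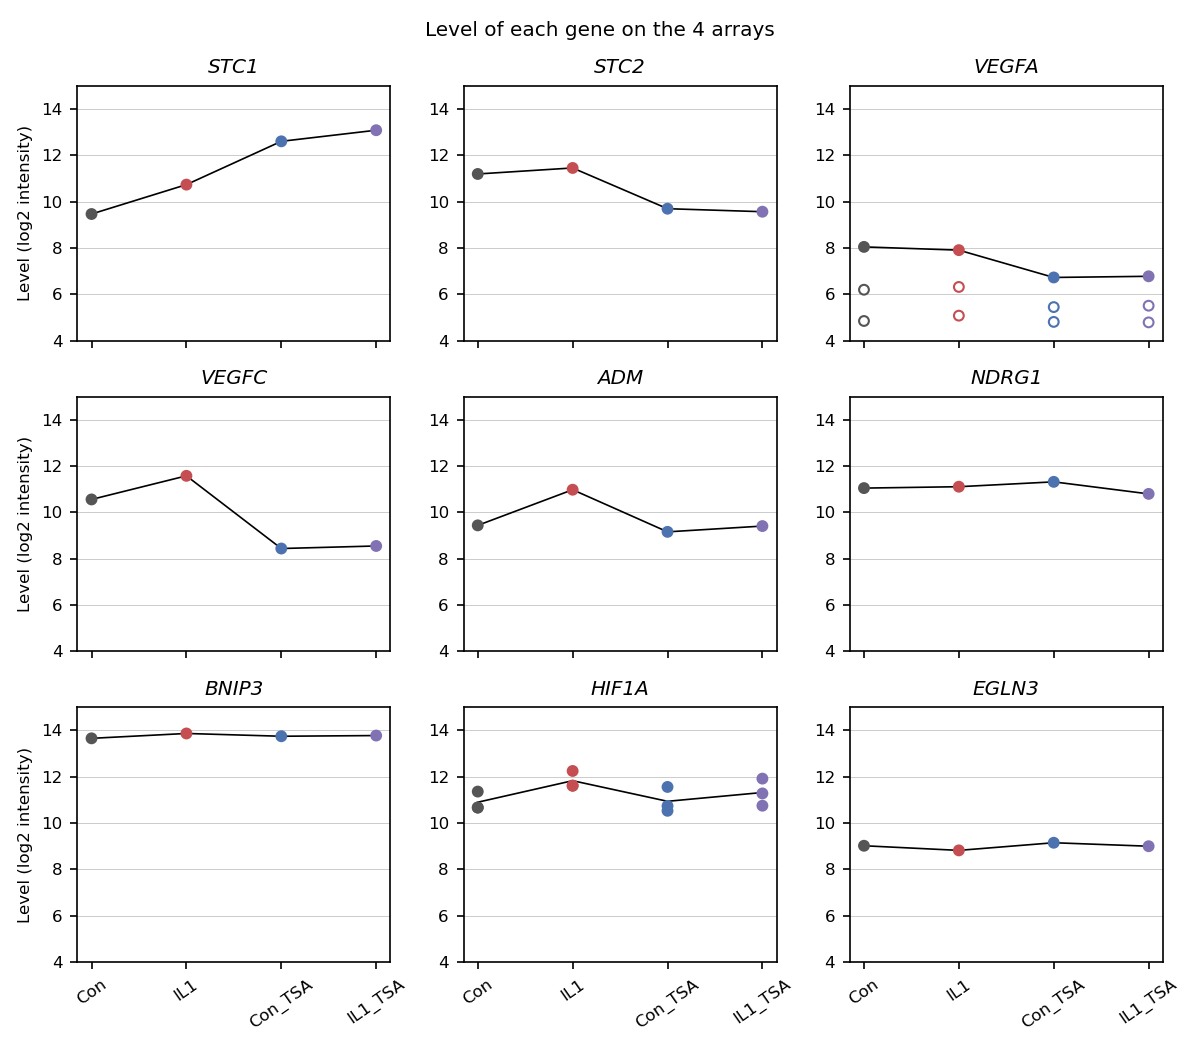
Level of each of the 9 genes (vertical axis, log2 intensity after normalisation) on the 4 arrays (horizontal axis). Filled circles are kept probes, open circles the 2 VEGFA probes that were not kept, and the line joins the mean of the kept probes. STC1 ran from 9.47 on Con to 13.09 on IL1_TSA, STC2 and VEGFC were lowest on the TSA arrays, and BNIP3 stayed between 13.66 and 13.87.

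Among the secreted vascular ligands, VEGFC, which acts on lymphatic endothelium through FLT4, had the largest range. Its log2 level (ILMN_1701204) was 10.56 on Con, 11.58 on IL1, 8.44 on Con_TSA and 8.55 on IL1_TSA, from raw intensities of 1554, 3103, 331 and 575. The TSA arrays lay below both others and differed from each other by 1.08-fold. Without IL-1, VEGFC was 4.36-fold lower with TSA (-2.12 ± 0.26), the 62nd lowest of all genes. With IL-1 it was 8.14-fold lower (-3.02 ± 0.31), the 68th lowest. IL-1 alone came with a 2.02-fold higher level (1.01 ± 0.18), and with TSA present the difference was 0.11 ± 0.30. The 2 differences that use the IL1 array are not independent of each other, and nor are those that use Con.

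ADM encodes adrenomedullin, a vasodilator peptide whose receptor is formed by CALCRL with a RAMP protein. Its log2 level (ILMN_1708934) was 9.44 on Con, 10.98 on IL1, 9.16 on Con_TSA and 9.41 on IL1_TSA. ADM stood out on the IL1 array alone, and the other 3 arrays lay within a range of 0.28. It was 2.90-fold higher in IL1 than in Con (1.54 ± 0.29) and 2.97-fold lower in IL1_TSA than in IL1 (-1.57 ± 0.31). Both differences rest on the same IL1 array. TSA alone gave -0.28 ± 0.26, and IL-1 in the presence of TSA gave 0.25 ± 0.25, both under the threshold.

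VEGFA, the principal vessel growth factor and a classical HIF target, was dim on these arrays. Only 1 of its 3 probes was kept (ILMN_2375879), with a log2 level of 8.05 on Con, 7.91 on IL1, 6.73 on Con_TSA and 6.78 on IL1_TSA. The raw intensities were 333, 294, 150 and 229, and on the TSA arrays its detection p-values from the scanner software, 0.00922 and 0.00659, were near the limit of 0.01. Both TSA arrays lay below both others, by 2.50-fold without IL-1 (-1.32 ± 0.35) and 2.19-fold with it (-1.13 ± 0.37). In the authors' deposited values these differences were -0.33 and -0.26, under 1.5-fold. The other VEGFA probes did not pass the detection limit on any array. One of them gave -0.75 and -0.81 for the same differences, and the other gave -0.04 and -0.29. The size of the VEGFA difference is therefore poorly fixed.

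NDRG1 and BNIP3, 2 intracellular proteins induced by low oxygen, were called in none of the 4 comparisons. NDRG1 (ILMN_1809931) had log2 levels of 11.05 on Con, 11.11 on IL1, 11.32 on Con_TSA and 10.80 on IL1_TSA. Its widest gap was between the TSA arrays, -0.52 ± 0.21 for IL1_TSA against Con_TSA, and -0.11 when the arrays were scaled to a common median. BNIP3 (ILMN_1724658), which targets mitochondria for autophagy, had log2 levels of 13.66 on Con, 13.87 on IL1, 13.75 on Con_TSA and 13.78 on IL1_TSA. Its range of 0.21 was the smallest of the 9 genes, against a noise SD of 0.12 to 0.15.

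HIF1A and EGLN3, the oxygen-sensing genes among the 9, differed little with TSA alone. HIF1A, measured by 3 probes, had a mean log2 level of 10.90 on Con, 11.83 on IL1, 10.94 on Con_TSA and 11.32 on IL1_TSA. The IL1 array was the highest, and the control arrays without and with TSA lay 0.04 apart. HIF1A was 1.90-fold higher in IL1 than in Con (0.93 ± 0.10), and its 3 probes gave 0.94, 0.89 and 0.95. In IL1_TSA against IL1 the mean was -0.51 ± 0.13, under the threshold, and the probes disagreed, with -0.86, -0.34 and -0.34. For IL-1 in the presence of TSA the same probes gave 0.01, 0.35 and 0.75, and the probes that differed most are assigned to the same transcript. EGLN3 (ILMN_1667626), a prolyl hydroxylase and HIF target, had levels of 9.02 on Con, 8.82 on IL1, 9.15 on Con_TSA and 9.0 on IL1_TSA, and none of its differences reached 1.5-fold.

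**Figure D2:**
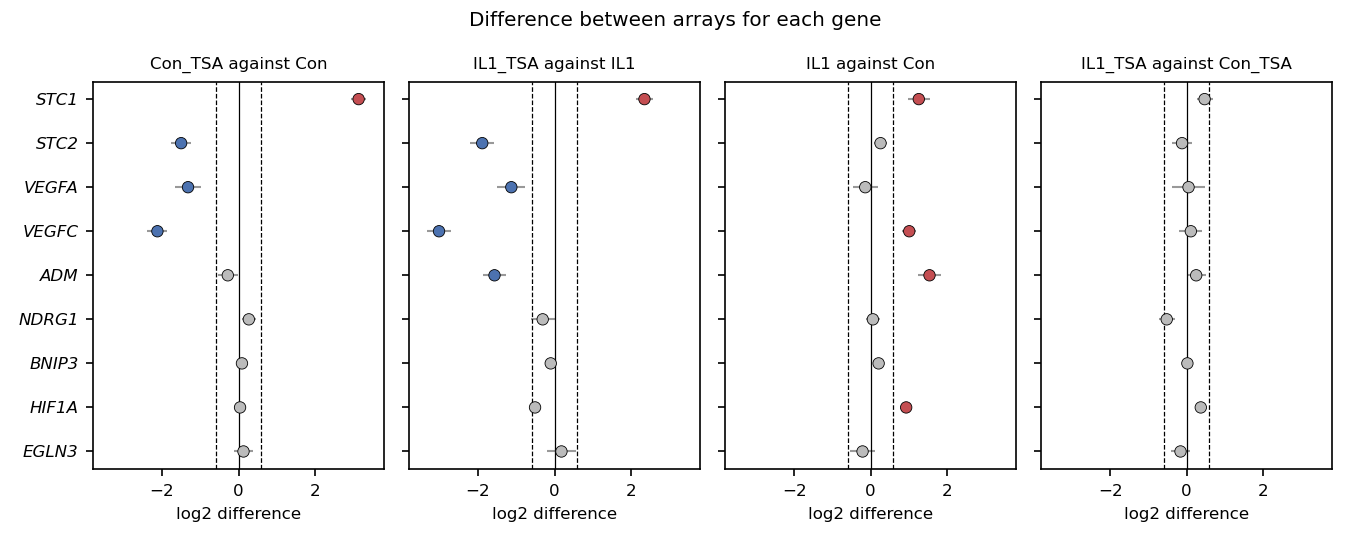
Log2 difference (horizontal axis) of each gene in the 4 comparisons, with red for called higher, blue for called lower and grey for neither. Bars are ± 1 SD of the noise between probes and dashed lines mark 1.5-fold. STC1 reached 3.14 and 2.35 with TSA, VEGFC -2.12 and -3.02, and no gene passed the threshold in IL1_TSA against Con_TSA.

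Counted over the 9 genes, TSA alone left 1 called higher (STC1) and 3 called lower (STC2, VEGFA and VEGFC) in Con_TSA against Con. Over all genes 16.3% were called higher and 16.4% lower in that comparison, which chose STC1, so nothing is read from the count. In IL1_TSA against IL1, 1 gene was called higher (STC1) and 4 lower (STC2, VEGFA, VEGFC and ADM), where 21.2% of all genes were called higher and 18.2% lower. The median log2 difference of the 9 genes was 0.04 with TSA alone, against -0.01 for all genes, and -0.51 with TSA under IL-1, against 0.02. The set thus held genes that differed in both directions and genes that did not pass the threshold.

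IL-1 alone came with higher levels of 4 of the 9 genes, STC1, VEGFC, ADM and HIF1A, and with lower levels of none, where 8.54% of all genes were called higher and 7.93% lower. The STC1 call reuses the Con array, on which the choice of STC1 favours a low level, so nothing is read from it. The median of the 9 genes was 0.26 against -0.10 for all genes. In the presence of TSA, none of the 9 was called in either direction in IL1_TSA against Con_TSA, where 4.20% of all genes were called higher and 2.75% lower. The 4 genes gave 0.47 for STC1, 0.11 for VEGFC, 0.25 for ADM and 0.37 for HIF1A in that comparison. These values depend on how the arrays are scaled. With each array shifted to a common median, the median of all genes in this comparison became 0.35 in place of -0.03, and STC1 (0.82), ADM (0.66) and HIF1A (0.77) passed the threshold.

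The TSA effect with IL-1 minus that without was -1.29 for ADM and -0.90 for VEGFC, against a median of 0.05 for all genes. For ADM and VEGFC the level with TSA was lower, relative to its own control, when IL-1 was present. For STC1 the value was -0.79, or -0.26 in the deposited values. It contains the difference on which STC1 was chosen as the most raised gene, a choice that favours a negative value, so nothing is read from it. The remaining 6 genes lay between -0.58 (NDRG1) and 0.19 (VEGFA). None of these differences could be tested.

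**Figure D3:**
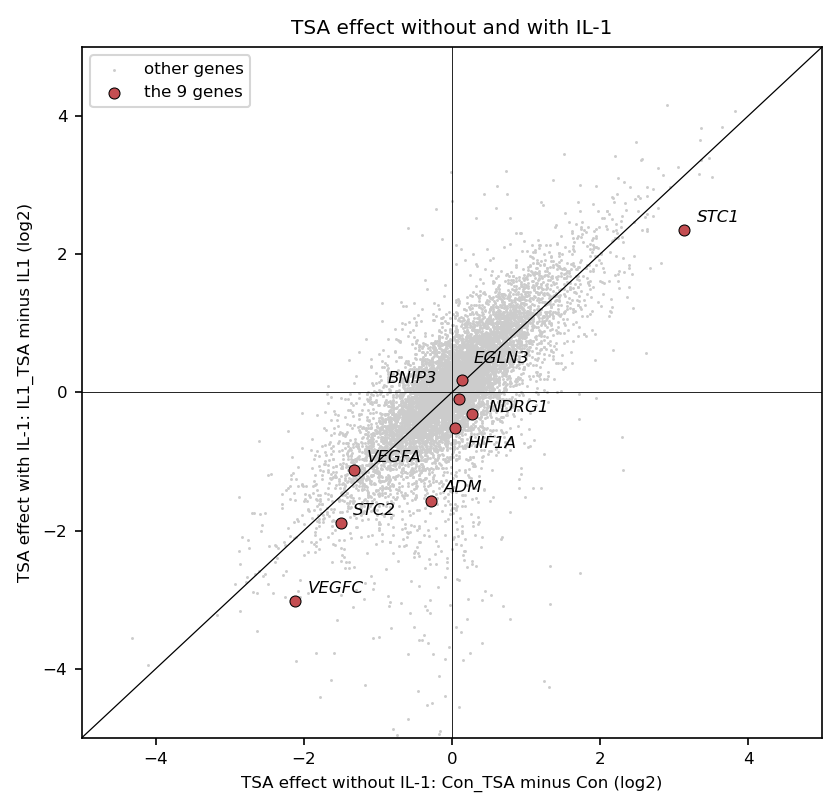
Effect of TSA without IL-1 (horizontal axis, Con_TSA minus Con) against its effect with IL-1 (vertical axis, IL1_TSA minus IL1), both as log2 differences; grey points are the other genes, red points the 9 genes, and the diagonal marks equal effects. The axes share no array and end at 5 in either direction, which leaves out 12 genes. STC1 lies at 3.14 and 2.35, VEGFC at -2.12 and -3.02, and ADM at -0.28 and -1.57.

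The genes whose pattern over the 4 arrays was most like that of STC1 were MAP2K3, ABTB2, ZSCAN5A, FOS and TNFSF9. They were the 5 nearest of 8351 genes detected on all 4 arrays, by Euclidean distance between log2 levels centred on each gene's mean, at 0.68, 0.83, 0.84, 0.85 and 0.86. MAP2K3, a kinase that activates p38, had levels of 5.80 on Con, 6.80 on IL1, 8.19 on Con_TSA and 8.60 on IL1_TSA, averaged over 2 probes, and its mean on Con lay under the lowest level of a detected probe there. FOS, a subunit of the transcription factor AP-1, had 6.93, 7.12, 9.21 and 9.60 in the same order. TNFSF9, a ligand of the TNF family, had 8.86 on Con, 9.51 on IL1, 10.84 on Con_TSA and 11.60 on IL1_TSA. With 4 arrays such likeness is a description of these arrays.

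The machinery that HIF1A works with held some genes that were lower with TSA. Of 15 such genes 13 were measured, HIF3A and ARNT not among them. In Con_TSA against Con 4 were called lower (30.8%) and 0 higher, where 16.4% of all genes were lower and 16.3% higher. In IL1_TSA against IL1 5 were called lower (38.5%) and 0 higher, beside 18.2% and 21.2% of all genes. Their medians were -0.16 and -0.35. ARNT2, a partner of HIF alpha subunits, was 6.85-fold lower with TSA alone and 6.67-fold lower with TSA under IL-1, with levels of 9.46 on Con, 10.07 on IL1, 6.69 on Con_TSA and 7.33 on IL1_TSA. Its log2 differences of -2.78 and -2.74 were -1.02 and -1.24 in the deposited values, so the size of the fold depends on the processing. The coactivator CREBBP was 3.07-fold and 2.98-fold lower, and its relative EP300 1.78-fold and 1.86-fold. EGLN2, another prolyl hydroxylase, was 2.34-fold and 2.16-fold lower. EP300 gave -0.36 and -0.41 in the deposited values, under the threshold. IL-1 against Con called 2 of the 13 higher (15.4%) and 0 lower, beside 8.54% and 7.93% of all genes. They were ARNT2 (0.61) and EGLN1 (0.75), the latter named after its value was seen. Both lost the call in the deposited values, at 0.37 and 0.29.

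Of 13 other VEGF and adrenomedullin ligands and receptors, 5 were measured. FLT4, the receptor of VEGFC, was higher with TSA, 1.58-fold without IL-1 and 1.52-fold with it, although its deposited differences of 0.38 and 0.35 fell short. NRP1, a co-receptor for VEGFA, was 1.62-fold and 1.60-fold lower, with -0.56, just under the threshold, and -0.65 in the deposited values. Neither VEGFB (-0.25 and -0.25) nor RAMP1 (0.02 and -0.42) passed the threshold. In IL1 against Con, 1 of the 5 was called higher (NRP2) and 0 lower, beside 8.54% and 7.93% of all genes. In IL1_TSA against IL1, 1 was called higher (FLT4) and 2 lower (NRP1 and NRP2), beside 21.2% and 18.2%. NRP2, named after its values were seen, was 3.84-fold higher in IL1 than in Con and 3.98-fold lower in IL1_TSA than in IL1. Some of its probes were undetected on the dimmer arrays. Its deposited differences were 0.59 and -0.58, the latter just under the threshold. In the deposited values TSA alone left none of the 5 called, beside 5.02% of all genes higher and 3.97% lower.

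Other hypoxia-induced targets of HIFs were called with TSA alone about as often as genes at large. Of 39 listed, 33 were measured, with 6 called higher (18.2%) and 4 lower (12.1%) in Con_TSA against Con, beside 16.3% and 16.4% of all genes. SLC2A3, a glucose transporter, was 3.27-fold higher with TSA alone and 4.82-fold higher with TSA under IL-1, with levels of 12.23 on Con, 11.64 on IL1, 13.94 on Con_TSA and 13.91 on IL1_TSA. BHLHE40, a transcriptional repressor, was 2.66-fold and 2.10-fold lower, and DDIT4, an inhibitor of mTORC1 signalling, 2.14-fold and 3.07-fold lower. INSIG2, which restrains sterol synthesis, was 2.06-fold higher with TSA alone and differed by 1.07-fold in IL1_TSA against IL1.

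IL-1 called 11 of the same 33 targets higher (33.3%) and 3 lower (9.09%), beside 8.54% and 7.93% of all genes, with a median of 0.25 against -0.10 for all genes. In the deposited values 7 were called higher and 1 lower, where 3.35% and 0.849% of all genes were called. Of the 11, 8 were called lower in IL1_TSA than in IL1 (72.7%), near the share of all 865 IL-1-raised genes that were (65.1%). In the deposited values this was 5 of 7 (71.4%), beside 70.8% of 339 genes. In IL1_TSA against Con_TSA 2 of the 11 were called higher (18.2%), beside 22.5% of the 865. The 8 genes, named after their values were seen, were LOX, PLOD2, ERO1A, WSB1, CXCR4, EDN1, PFKFB4 and AK4. Both differences use the IL1 array, on which these genes were picked as high, as they do for VEGFC and ADM, the 2 of the 4 IL-1-raised genes of the set that were called lower with TSA. In IL1_TSA against IL1, 5 of the 33 were called higher (15.2%) and 12 lower (36.4%), beside 21.2% and 18.2% of all genes. In IL1_TSA against Con_TSA, 2 were called higher (6.06%) and 1 lower (3.03%), beside 4.20% and 2.75%.

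**Figure D4:**
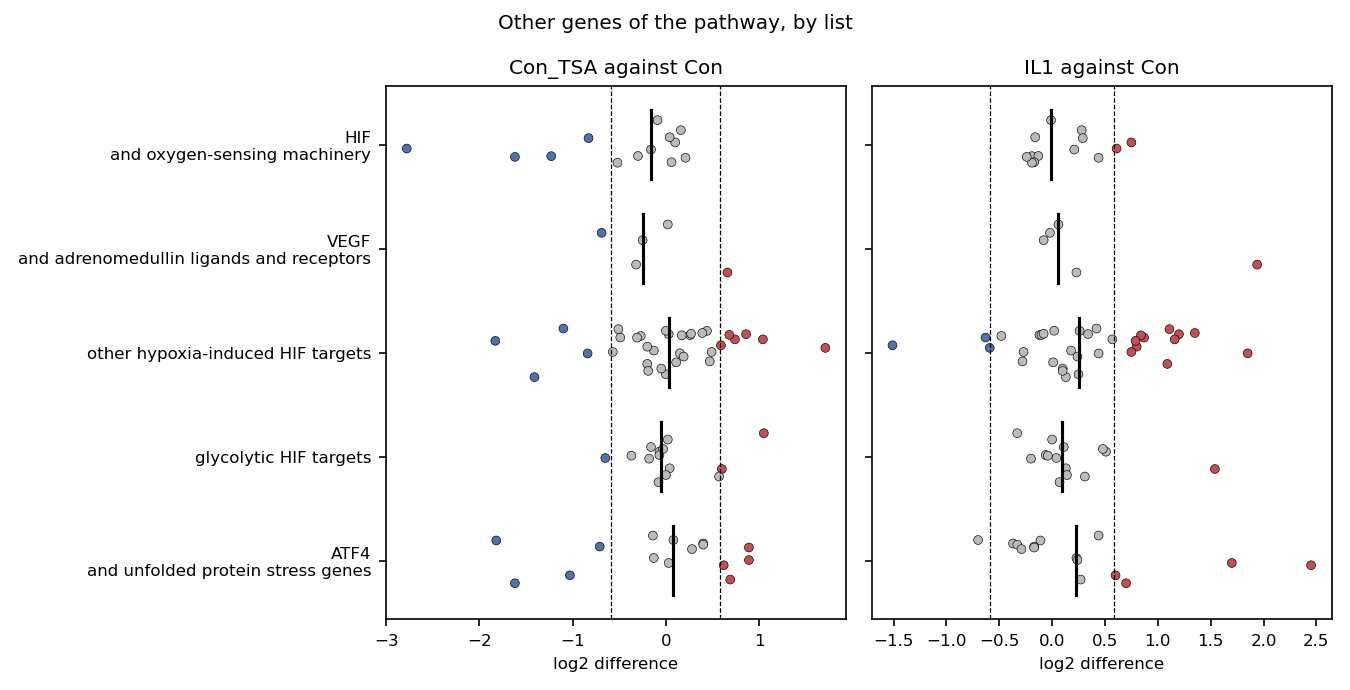
Log2 difference (horizontal axis) of each measured gene of 5 pathway lists (rows) in Con_TSA against Con (left) and IL1 against Con (right), which share the Con array. Red is called higher, blue called lower, grey neither, black bars are list medians and dashed lines mark 1.5-fold. Other hypoxia-induced targets had medians of 0.03 and 0.25, and HIF machinery -0.16 and -0.01.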

How the data were processed

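Values were taken from 4 arrays, 1 per condition. The authors deposited scanner intensity values for each probe, with no normalisation across arrays, and a detection p-value that sets the signal against negative control probes. A second deposited table gives the authors' log2 values, made with lumi (version not given in the sources used here) by variance stabilisation and robust spline normalisation, and was used as an alternative. Its array medians lay between 7.192 and 7.202.

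Intensities were processed with neqc of limma 3.58.1 in R 4.3.3 (offset 16, quantile normalisation, log2). Of 48784 probes, 15088 with detection p under 0.01 on at least 1 array were kept. Symbols came from the platform table, which lists 27578 probes (27565 with 1 gene, 13 with several). It appears to belong to another Illumina human design than the methods name, and 21206 probes are not named here. Kept probes of 1 gene were averaged. The threshold of 1.5-fold was that of the study. Noise is the SD of differences between probes of the same gene, pooled within bands of level over 2370 genes with several kept probes. It is divided by the square root of a gene's number of kept probes. The counting steps were tested on simulated data. The labels give 6 hours of IL-1. The figure legends of the study, and its legend to the supplementary data of the TSA experiment, name a longer time. The labelled time is used.

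The genes, the lists and the rule for named genes were chosen with earlier results of these data known. The rule names all 9 genes, the 5 genes nearest to STC1, and of each list up to 4 genes with the largest difference in Con_TSA against Con among those detected on both arrays. The alternatives were the deposited values, no background correction, median scaling, an offset of 50, detection p under 0.05, no detection filter, the brightest probe and a 2-fold threshold. Counts of the lists in the deposited values were added after the data were seen.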

Additional observations from a re-analysis of the deposited data

How the results depend on the processing

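The 13 called differences of the 9 genes were recomputed under 7 other ways of processing, giving 91 values. All 91 had the direction reported, and 2 fell under 1.5-fold, those of VEGFA in the authors' deposited values (-0.33 and -0.26). STC1, STC2, VEGFC and ADM have 1 probe each, detected on every array. The changed detection limits and the choice of the brightest probe could not alter their values, so those repeats are no check on them. HIF1A has 3 probes, all detected on every array, so the changed detection limits could not alter its value either. The 13 also include the difference on which STC1 was chosen and its difference in IL1 against Con, which reuses the Con array. Nothing is read from the repeats of these. STC1 ranged from 2.62 to 3.14 in Con_TSA against Con and from 2.30 to 2.49 in IL1_TSA against IL1, and VEGFC from -2.32 to -1.29 and from -3.02 to -2.13. In IL1_TSA against Con_TSA, where 0 of the 9 genes were called, 1 was called higher in the deposited values (STC1, 0.61) and 3 with median scaling. Of all genes, 0.879% and 20.5% were called higher there. Median scaling moved the median of all genes to -0.19 in Con_TSA against Con, 0.22 in IL1_TSA against IL1 and 0.35 in IL1_TSA against Con_TSA, and left it at -0.10 in IL1 against Con. It turned the sign of differences under 1.5-fold for BNIP3 (-0.09), EGLN3 (-0.07) and HIF1A (-0.17) in Con_TSA against Con and for STC2 (0.30) and EGLN3 (0.25) in IL1_TSA against Con_TSA.

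Counts over all genes depended more on the processing. In the order Con_TSA against Con, IL1_TSA against IL1, IL1 against Con and IL1_TSA against Con_TSA, 1652, 2148, 865 and 425 genes were called higher and 1664, 1847, 803 and 279 lower. The deposited values gave 508, 644, 339 and 89 higher and 402, 586, 86 and 11 lower. Median scaling gave 1118, 3001, 855 and 2072 higher and 2329, 1301, 892 and 43 lower, and no background correction gave 1136, 1538, 658 and 195 higher and 1163, 1374, 361 and 52 lower. At 2-fold there were 692, 1063, 496 and 143 higher and 724, 950, 178 and 22 lower, and an offset of 50 left 285 higher and 144 lower in IL1_TSA against Con_TSA. No paired analysis was possible because each condition was 1 array. Probes near the detection limit, such as that of VEGFA, limit the precision of folds.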

Other observations

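2 lists that border on the pathway were looked at beside the 9 genes. Of 15 glycolytic targets of HIFs, 14 were measured, with 2 called higher (14.3%) and 1 lower (7.14%) in Con_TSA against Con, and 1 higher and 1 lower in IL1_TSA against IL1 (7.14% each). Of all genes, 16.3% and 16.4% were called in the first comparison and 21.2% and 18.2% in the second. ALDOC, an aldolase, was 2.07-fold higher with TSA alone and 2.24-fold higher with TSA under IL-1. HK2, a hexokinase, was 2.90-fold higher in IL1 than in Con, 1.51-fold higher with TSA alone and 1.88-fold lower in IL1_TSA than in IL1. PFKL, a phosphofructokinase, was 1.56-fold lower with TSA alone. In the deposited values HK2 gave 0.23 and PFKL -0.34 with TSA alone, and HK2 gave -0.42 in IL1_TSA against IL1, all under 1.5-fold. The list medians were -0.05 with TSA alone and 0.09 with IL-1 alone. IL-1 alone called 1 gene of this list higher (7.14%) and 0 lower, beside 8.54% and 7.93% of all genes. In the presence of TSA, IL-1 called none in either direction, beside 4.20% and 2.75%.

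STC2 is also known as a target of the stress factor ATF4. Of 17 ATF4 and unfolded protein stress genes, 15 were measured, with 4 called higher and 4 lower (26.7% each) in Con_TSA against Con, and 5 higher (33.3%) and 6 lower (40%) in IL1_TSA against IL1, beside the shares of all genes just given for these comparisons. Among those called higher, CHAC1 was undetected on Con and IL1, with bounds of at least 1.26-fold and 1.45-fold, short of 1.5-fold. SESN2, called higher with TSA under IL-1, was undetected on IL1 and gave no bound. CHAC1 and SESN2 were named after their values were seen. In the deposited values 1 was called higher and 3 lower with TSA alone, where 5.02% and 3.97% of all genes were. With TSA under IL-1 they gave 1 higher and 6 lower, beside 6.36% and 5.79% of all genes. TRIB3, a pseudokinase induced by ATF4, was 3.52-fold and 3.64-fold lower. ATF4 itself, named after its values were seen, gave log2 differences of -0.13 and -0.01. XBP1, a transcription factor of the unfolded protein response, was 3.07-fold and 3.64-fold lower, and PPP1R15A, which restores translation after stress, 2.04-fold and 2.11-fold lower. CTH, an enzyme of cysteine synthesis, was 1.86-fold and 1.92-fold higher, with 0.38 in both comparisons in the deposited values, under 1.5-fold. The median of the list was 0.08 with TSA alone and -0.01 with TSA under IL-1. IL-1 alone called 4 of the 15 higher (26.7%) and 0 lower, beside 8.54% and 7.93% of all genes. In the presence of TSA, IL-1 called 2 higher (13.3%) and 0 lower, beside 4.20% and 2.75%.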
